A study of Mus musculus with 11 samples.

Results

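The genes described here encode the mitochondrial machinery that burns fatty acids and handles ketone bodies. They were chosen by name from the sense-strand rows of the deposited tables. Of the 37 listed symbols, 2 pairs are an older and a newer name of the same gene (Dci for Eci1, Peci for Eci2), and the files held 35 genes under the older names. Of these 35, 33 reached an FPKM (fragments scaled to exon length and to the mapped total, a level per length) of at least 1 in at least 1 sample and were tested among 13615 of 29955 gene symbols. The remaining 2, Acsl6 and Bdh1, stayed at or below 0.413 and 0.0412 FPKM.

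RNA-seq was carried out in 11 samples of im-scWAT, preadipocytes from mouse inguinal fat that were immortalized by large T antigen. The 6 untransduced samples cover days 0, 4 and 8 after induction, with 1 sample per day labelled plus and 1 labelled minus for rosiglitazone (ROS, a synthetic PPARγ ligand, 0.5 μM). All differentiating cultures received indomethacin, dexamethasone, 3-isobutyl-1-methylxanthine, insulin and T3. ROS is first added at day 0, and the labels and the methods differ on whether it was withdrawn at day 7 or kept until day 8. The 5 transduced samples were taken at day 8 and labelled ROS plus. Each carried a U6-driven shRNA to mouse Jmjd1a and human JMJD1A (hJMJD1A, a histone H3K9 demethylase) expressed from a retroviral LTR, and the transduced cells were drug-selected. WT-hJMJD1A had 2 samples (WT A and WT B). S265A, in which the phosphorylated serine is lost, S265D, in which aspartate mimics the phosphate, and S265D-H1120Y, which adds a change at the iron-binding site of the demethylase, had 1 sample each. The labels do not say whether samples of the same group came from independently repeated cultures, so p-values measure only the spread between these samples.

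The total of mapped bases was 3.10 to 5.29 Gb per sample, and 100 bases on 2 kb of exon gave an FPKM of 0.00944 to 0.0161, so every tested gene was well above the sampling floor in its highest sample. Kdm3a, the mouse gene targeted by the shRNA, was at 13.0 to 28.5 FPKM in the 5 transduced samples and 15.1 to 23.2 in the 6 untransduced samples, so the ranges overlapped, and reads of the introduced human sequence cannot be told apart from mouse reads in these values. The summed FPKM of 7 adipocyte markers was 263 and 266 at day 0 and 11229 to 35194 in all later samples. Most of each sum was Fabp4, at 249 and 248 at day 0 and 7631 to 31402 later. Another of the 7, Lep, stayed at or below 0.252. The summed FPKM of 7 preadipocyte and fibroblast markers differed between samples that are compared here: 972 without ROS and 254 with ROS at day 8, and 409 in WT A and 881 in WT B. Ly6a, which is among them, made up much of this gap, at 495 and 108 and at 116 and 496 in the same samples. Of other cell types, Myod1, Myog, Ckm, Myh4, Emr1 and Ptprc were at 0 in all 11 samples, while Acta1 reached 19.3 in WT B and Cd68 21.7 in S265D-H1120Y. In bulk RNA, fewer adipocytes and less RNA per adipocyte cannot be told apart.

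A fatty acid is burned in steps. Acyl-CoA synthetases of the Acsl family activate it, the carnitine shuttle carries the acyl group across the mitochondrial membranes, and repeated rounds of dehydrogenation, hydration, dehydrogenation and thiolysis shorten the chain and release acetyl-CoA. Electrons of the dehydrogenases pass through the electron transfer flavoprotein (Etfa, Etfb) and its dehydrogenase (Etfdh) to ubiquinone. Ketone bodies made elsewhere are turned back into acetyl-CoA by Oxct1 and Acat1. In brown and beige fat this route is known to supply the fuel of thermogenesis, and many of its genes are known targets of PPARs.

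As preadipocytes became adipocytes, nearly the whole pathway rose. At day 8, 28 of 33 genes were higher than at day 0, 3 were lower (Acsl3, Acsl4 and Cpt1a), and Acsl5 and Cpt1c did not pass the test (limma on log2(FPKM + 0.1), adjusted p of 0.05, 2 samples against 2). The background was high, since 27.7% of all tested genes were called higher and 26.1% lower. The median fold of the 33 genes was 4.40 (log2 2.14), while the median of all tested genes was log2 -0.035. At day 4, 26 genes were already higher than at day 0 and 3 lower (Acsl3, Acsl5 and Cpt1a), beside 23.9% of all genes called higher and 20.2% lower, with a median log2 of 1.65. The 2 samples of a day differ in ROS, so this difference is part of the spread in the test. The test at day 4 was also less stable. Leaving out the day 0 sample without ROS, the day 0 sample with ROS or the day 4 sample with ROS left 17 calls at day 4 in each case, while 1460 to 1636 of the 13615 genes were called higher and 759 to 847 lower in the same fits, against 3252 and 2747 with all samples.

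**Figure D1:**
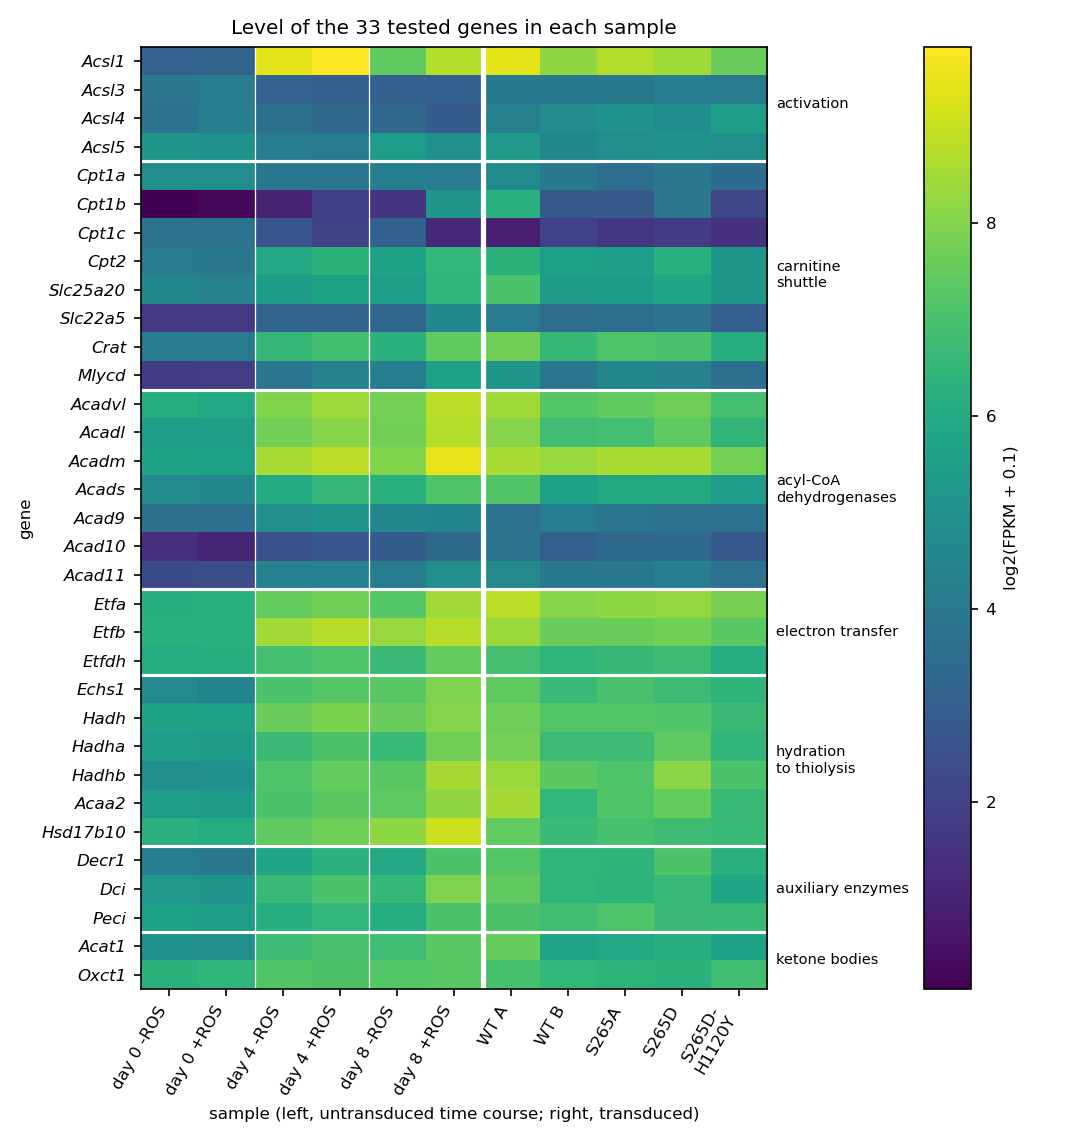
Level of each of the 33 tested genes, as log2(FPKM + 0.1), in the 6 untransduced samples (left of the thick line) and the 5 transduced samples (right), 1 sample per column, with genes grouped by step. Most rows brighten from day 0 to day 4, Cpt1b lights up in the day 8 sample with ROS (34.4 FPKM) and WT A (76.4 FPKM), and Cpt1c and Acsl3 go the other way.

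Activation showed the widest rearrangement within a family. Acsl1, the main synthetase of fat cells, stood at 8.65 and 8.94 FPKM at day 0 (without and with ROS), at 679 and 902 at day 4, and at 175 and 423 at day 8. All 4 later samples lay far above the day 0 pair, with 87.9-fold at day 4 (log2 6.46 ± 0.40 SE, adjusted p = 0.000237) and 30.6-fold at day 8 (log2 4.93 ± 0.40 SE, adjusted p = 0.000501). Acsl1 held 11.6% and 11.2% of the summed FPKM of the 5 Acsl genes at day 0 and 94.5% and 96.3% at day 4. The day 8 samples held 74.2% without ROS and 90.4% with ROS. Acsl3, a synthetase of the endoplasmic reticulum and lipid droplets, fell from 15.3 and 18.1 FPKM to 8.70 and 7.78 at day 4 and 8.28 and 8.16 at day 8, and the day 0 pair did not overlap the later untransduced samples. In the 5 transduced samples Acsl3 was at 15.9 to 18.8 FPKM, which overlapped the day 0 pair. Acsl4, which prefers arachidonate, was at 13.6 and 18.7 at day 0, 12.4 and 10.3 at day 4, and 9.67 and 7.41 at day 8 (adjusted p = 0.0166 at day 8). In the transduced samples Acsl4 was at 19.8 to 45.9 FPKM, above the day 0 pair. Acsl5 fell by 1.02 on the log2 scale at day 4 and was back at its day 0 level at day 8, with 36.9 and 33.9, then 18.1 and 16.7, then 42.6 and 29.2 FPKM.

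In the carnitine shuttle the outer-membrane enzyme carnitine palmitoyltransferase 1, the gate of the pathway, has 3 forms, and they took separate courses. Cpt1a, the form of liver and most tissues, fell from 29.8 and 28.5 FPKM at day 0 to 14.9 and 14.8 at day 4, and stood at 19.3 and 16.7 at day 8 (log2 change at day 8 -0.69 ± 0.12 SE, adjusted p = 0.00568). Cpt1b, the form of muscle and brown fat (mm9 chromosome 15, 89246836 to 89256293, minus strand), was at 0.949 and 1.11 at day 0, 1.91 and 3.61 at day 4, and 2.85 without and 34.4 with ROS at day 8. The day 8 sample with ROS stood far above the other 5, and the call against day 0 was borderline (log2 3.16 ± 1.07 SE, adjusted p = 0.0483) and was lost in 8 of 13 alternatives, with adjusted p from 0.00021 to 0.159 over the 14 fits. Cpt1c, the form of neurons, was at 13.0 in both day 0 samples, 6.34 and 3.88 at day 4, and 8.39 and 2.14 at day 8, and did not pass the test (adjusted p = 0.0686 at day 8). The share of Cpt1b in the summed FPKM of the 3 forms was 2.17% and 2.6% at day 0, 8.24% and 16.2% at day 4, and 9.32% without and 64.6% with ROS at day 8. Cpt1a was the most abundant form in every untransduced sample except the day 8 sample with ROS.

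The rest of the shuttle was called higher at day 4 and at day 8, although at day 4 the call was lost in 7 of 13 alternatives for Slc25a20, 5 for Slc22a5 and 3 for Mlycd. Cpt2, the inner-membrane partner that rebuilds acyl-CoA, went from 17.2 and 15.4 FPKM to 61.9 and 79.7 at day 4 and 53.0 and 92.3 at day 8 (4.28-fold at day 8, log2 2.10 ± 0.28 SE, adjusted p = 0.00227). Slc25a20, the carnitine-acylcarnitine carrier, went from 23.1 and 20.9 to 41.2 and 52.5, and then to 46.8 and 88.4 (2.91-fold at day 8). Slc22a5, the carnitine importer of the plasma membrane, rose 4.83-fold to 9.82 and 24.3 FPKM at day 8. Crat, which exports acetyl units as acetylcarnitine, rose 6.80-fold to 78.0 and 173 FPKM. Mlycd, which removes the Cpt1 inhibitor malonyl-CoA, rose 8.63-fold to 18.9 FPKM without and 49.0 with ROS at day 8. In each of these 5 genes the lowest later sample was above both day 0 samples.

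**Figure D2:**
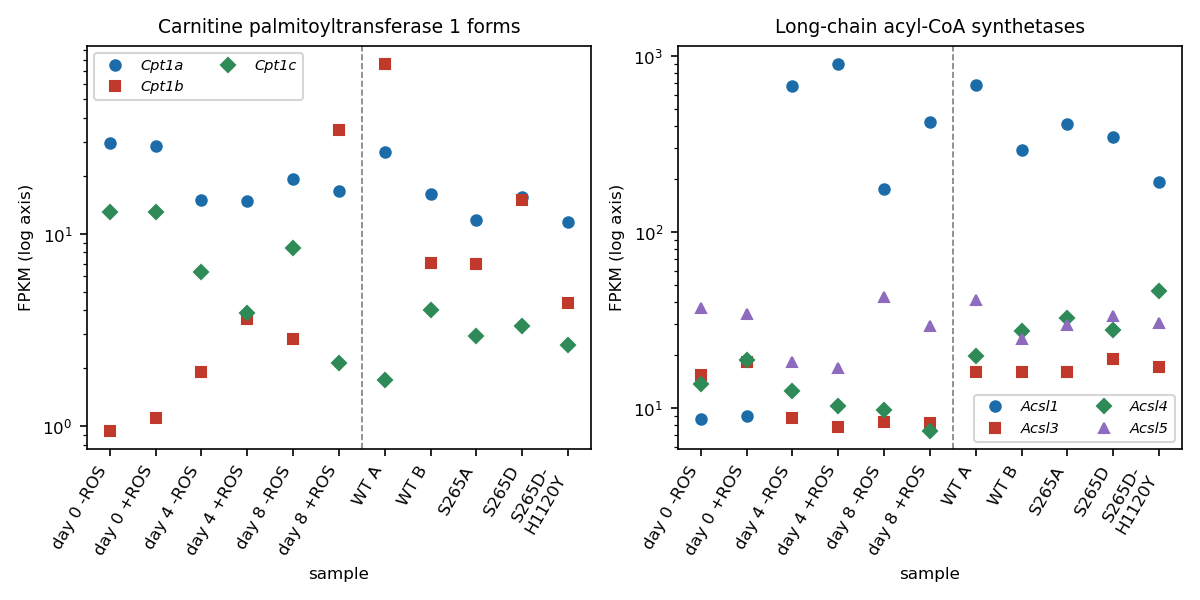
FPKM on a log axis of the 3 Cpt1 forms (left) and the 4 tested Acsl genes (right) in each of the 11 samples, 1 point per gene and sample. Cpt1b is above Cpt1a in the day 8 sample with ROS and in WT A alone, and nearly level with it in S265D (15.0 and 15.6 FPKM). Acsl1 is below the other Acsl genes in both day 0 samples and above them in all later ones.

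All 7 acyl-CoA dehydrogenases rose at day 4 and at day 8. They act on chains of different length and carry out the first oxidation. Acadm, for medium chains, was at 51.2 and 48.9 FPKM at day 0, 377 and 461 at day 4, and 253 and 701 at day 8, an 8.40-fold rise (log2 3.07 ± 0.45 SE, adjusted p = 0.00309), and in the last of these samples it was the most abundant of the 33 genes. Acadl, for long chains, rose 6.58-fold to 216 and 421 FPKM, Acadvl, for very long chains, 4.80-fold to 219 and 455, and Acads, for short chains, 4.13-fold to 75.6 and 143. The groups of days 0 and 8 did not overlap in any of the 4. Acad9, which is also an assembly factor of complex I, rose least, from 12.6 and 12.3 FPKM to 24.0 and 22.1 (1.85-fold), after 29.5 and 34.3 at day 4. Acad10 and Acad11, less abundant relatives, rose 3.81-fold and 4.66-fold.

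The 3 electron transfer genes were also called higher on both days, but the call of Etfdh was lost in 8 of 13 alternatives at day 4 and 5 at day 8, and that of Etfa in 5 and 3. Etfb, the smaller flavoprotein subunit, went from 78.1 and 76.4 FPKM to 354 and 434 at day 4 and 318 and 432 at day 8 (4.79-fold at day 8, adjusted p = 0.000565). Etfa, the other subunit, rose 3.10-fold to 154 and 351 FPKM, and Etfdh 1.95-fold to 104 and 184. The FPKM ratio of Etfb to Etfa was 1.09 and 0.977 at day 0, 1.97 and 2.01 at day 4, and 2.07 without and 1.23 with ROS at day 8. It was 0.694 to 0.738 in the 5 transduced samples, below all 6 untransduced ones.

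The enzymes that hydrate, oxidize and cleave the shortened chain all rose. Echs1, the short-chain enoyl-CoA hydratase, rose most of these 6, from 25.0 and 21.8 FPKM to 160 and 243 at day 8 (8.41-fold, log2 3.07 ± 0.22 SE, adjusted p = 0.000316). Acaa2, the 3-ketoacyl-CoA thiolase, rose 5.41-fold, Hsd17b10, a dehydrogenase of short branched chains that is also a subunit of mitochondrial RNase P, 5.34-fold, and Hadh, the short-chain hydroxyacyl-CoA dehydrogenase, 4.46-fold. Hsd17b10 reached 287 and 530 FPKM at day 8 but only 99.3 to 180 in the transduced samples. The 5 transduced samples thus lay below both day 8 samples in this gene.

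Hadha and Hadhb encode the alpha and beta subunits of the trifunctional protein, which handles long chains at the inner membrane, and the genes lie head to head. In the files Hadha occupies chromosome 5, 30444844 to 30481520 on the minus strand, and Hadhb 30481862 to 30511123 on the plus strand (mm9). Their RefSeq starts in GRCm38.p6 are 273 bases apart, so the promoter windows of 250 bases before to 50 after each start overlap by 228 bases. Most of the stretch between them is shown because it lies upstream of both genes. It is 60.7% G and C, beside a mean of 53.8% over all promoters in the table, is read in the direction of Hadhb at chr5:30155003-30155272, and its last 20 bases begin at the Hadhb start.
Hadhb: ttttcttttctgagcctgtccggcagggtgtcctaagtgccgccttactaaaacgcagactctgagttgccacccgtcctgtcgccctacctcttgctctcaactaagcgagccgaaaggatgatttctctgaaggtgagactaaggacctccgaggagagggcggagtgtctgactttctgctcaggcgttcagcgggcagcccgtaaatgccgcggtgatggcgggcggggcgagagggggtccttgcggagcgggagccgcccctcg
Hadha went from 42.3 and 39.7 FPKM at day 0 to 105 and 136 at day 4 and 100.5 and 207 at day 8. Hadhb went from 30.4 and 31.9 to 141 and 183 and then to 158 and 366. Both rose, Hadha 3.51-fold and Hadhb 7.69-fold at day 8 (adjusted p = 0.00663 and 0.00215). The FPKM ratio of Hadhb to Hadha was 0.721 and 0.804 at day 0 and 1.32 to 1.77 in the other 9 samples, so these 2 groups of samples did not overlap in the balance of the subunits.

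Auxiliary enzymes let unsaturated chains enter the spiral. Decr1, the dienoyl-CoA reductase, went from 18.1 and 15.6 FPKM to 61.5 and 132 at day 8 (5.33-fold), Dci, an enoyl-CoA isomerase, from 38.6 and 34.3 to 93.7 and 244 (4.15-fold), and Peci, a second isomerase, from 46.9 and 42.8 to 69.1 and 133 (2.14-fold, adjusted p = 0.0265). All 3 passed the test at day 8. Of the ketone body genes, Oxct1, which returns coenzyme A to acetoacetate, was the most abundant of the 33 genes in both day 0 samples, at 81.2 and 86.2 FPKM, and rose 1.84-fold to 150.1 and 157 at day 8. Acat1, the thiolase that ends ketone use, rose 4.40-fold from 31.7 and 29.5 to 112 and 162. Bdh1, which interconverts the ketone bodies, was listed at 0 in 6 of the 11 samples and at most 0.0412 in the others.

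Between day 4 and day 8, 4 of 33 genes were at an unadjusted p under 0.05 (limma), beside 3435 of all 13615 tested genes. After adjustment no gene of the pathway passed the test (0 of 33, smallest adjusted p = 0.0764), beside 0.389% of all genes called higher and 0.132% lower. This rested on the day 8 samples. Without the day 8 sample lacking ROS, 21 genes were called higher and 3 lower, beside 10.2% and 15.7% of all genes, and without the day 8 sample with ROS 2 were called higher and 2 lower, beside 9.66% and 3.55%. Without any 1 of the other 4 samples, 0 of 33 genes and 0 of all genes were called. The arms with and without ROS had different medians here. Without ROS the median log2 ratio of day 8 over day 4 was 0.004, with 17 genes higher and 16 lower. With ROS it was 0.591, with 28 genes higher and 5 lower. The median of all genes was 0.058 and -0.108 in the same comparisons. With 1 sample per arm and day, this difference was not tested.

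The question of what ROS adds was followed day by day. At day 0 none of the 33 genes differed by 2-fold between the samples labelled plus and minus (0.771% of all genes were at least 2-fold higher and 0.242% lower). At day 4 again none did, beside 0.499% of all genes higher and 1.18% lower, although 26 of 33 genes were higher with ROS, with a median fold of 1.23 and a range of log2 -0.696 (Cpt1c) to 0.885 (Cpt1b). At day 8, 12 of 33 genes were at least 2-fold higher with ROS and 1 was at least 2-fold lower, beside 2.64% and 9.96% of all tested genes. The median of the 33 genes was log2 0.884 (1.85-fold), with 27 higher and 6 lower, while that of all genes was log2 -0.194.

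The 12 genes came from nearly every step: Cpt1b (11.7-fold), Acadm (2.77), Dci (2.61), Mlycd (2.58), Slc22a5 (2.46), Acsl1 (2.42), Hadhb (2.31), Etfa (2.28), Crat (2.22), Decr1 (2.14), Acadvl (2.08) and Hadha (2.06). Just under the limit stood Acadl at 1.95-fold, Peci at 1.92, Acads and Slc25a20 at 1.89 and Hsd17b10 at 1.85. Cpt1c was the gene at least 2-fold lower, at 0.264 of its level without ROS. Acsl4 and Acsl5 were lower at 0.769 and 0.687, and Acsl3, Cpt1a and Acad9 were at 0.986, 0.867 and 0.923. Oxct1 was level, with 150.1 FPKM without and 157 with ROS.

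These are ratios of 1 sample to 1 sample. In limma with the day 0 pair as the only spread (1 residual degree of freedom), none of the 33 genes passed at day 8 or at day 4. With a pseudocount of 1 limma called 11 genes higher and 1 lower at day 8, beside 1.89% and 3.99% of all genes. With no minimum FPKM it called 1 higher and 1 lower, beside 2.83% and 4.22%, and after rescaling to equal medians 16 higher and 1 lower, beside 2.9% and 4.43%. The median of all genes moved by 0.21 on the log2 scale between the deposited and the rescaled values, and after rescaling to equal medians 20 genes were at least 2-fold higher and 1 lower at day 8, beside 4.09% and 7.08% of all genes, and Acsl3, Cpt1a and Acad9 turned to the higher side. The make-up of the day 8 samples with and without ROS also differed. With ROS, 7 of 7 preadipocyte and fibroblast markers were lower (median log2 -1.79) and 5 of 6 tested adipocyte markers higher (median log2 0.587). The 4 tested beige and brown fat markers were all higher (median log2 3.97). Among them was Ucp1, the uncoupling protein of thermogenesis, at 0.097 FPKM without and 9.90 with ROS. Dio2, also on this list, stayed at or below 0.0619 FPKM in all samples and was not tested. The part of these markers in the result was not tested. Other mitochondrial genes were also higher: 12 of 12 citrate cycle genes with a median log2 of 0.694 and 12 of 12 respiratory chain genes with 0.621, none of them at 2-fold. In peroxisomal oxidation 11 of 12 genes were higher (median log2 0.419) and 3 were at least 2-fold higher, among them Acaa1b at 5.31 FPKM without and 75.9 with ROS. Of 11 regulators of the pathway 8 were higher and 3 lower (median log2 0.611), and 4 were at least 2-fold higher. In ketogenesis 1 gene was higher and 2 lower.

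**Figure D3:**
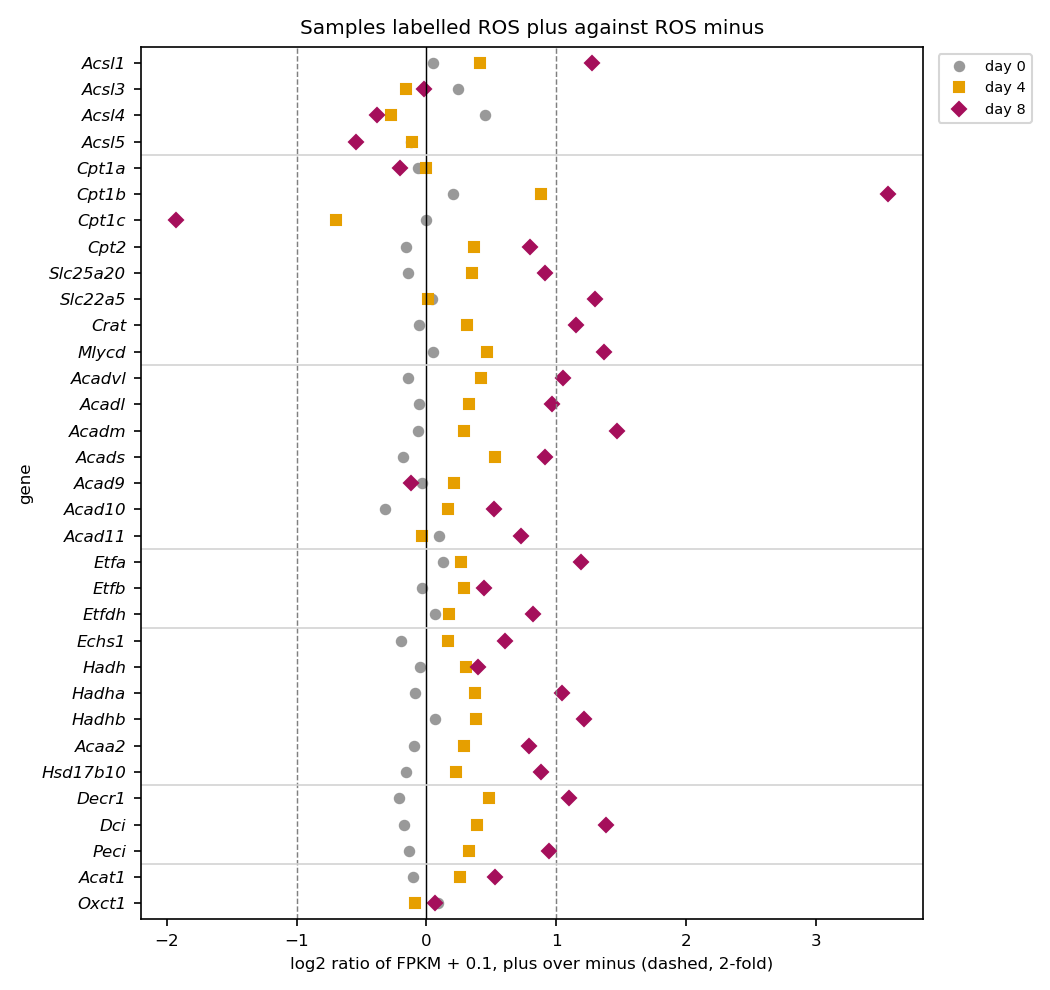
Log2 ratio of FPKM + 0.1 between the sample labelled ROS plus and the sample labelled ROS minus at day 0 (grey), day 4 (orange) and day 8 (magenta), 1 point per gene and day, with dashed lines at 2-fold. The day 0 and day 4 points all lie within 2-fold, and at day 8 12 genes pass the right line, Cpt1b farthest at log2 3.55, and Cpt1c passes the left line at -1.92.

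Because ROS acts through PPARγ, the promoters were searched for the PPAR response element, a direct repeat with the letters AGGTCANAGGTCA, with up to 2 mismatches over its 12 fixed bases, on both strands. Promoters of 29 of the 35 genes were in the RefSeq table (GRCm38.p6). Cpt1b, Crat, Acad9, Acaa2, Decr1 and Acat1 had no entry. A match was found in 3 of 29 genes (10.3%), beside 4.40% of all 27025 genes in the table. They are shown from 120 bases before to 30 from the start, with the match in capitals.
Slc25a20: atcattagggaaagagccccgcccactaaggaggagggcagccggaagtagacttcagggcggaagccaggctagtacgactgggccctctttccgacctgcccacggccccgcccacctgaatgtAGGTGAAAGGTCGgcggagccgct
Etfa: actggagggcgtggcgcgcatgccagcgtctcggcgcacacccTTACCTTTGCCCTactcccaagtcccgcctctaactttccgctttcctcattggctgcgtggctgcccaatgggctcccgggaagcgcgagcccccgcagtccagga
Echs1: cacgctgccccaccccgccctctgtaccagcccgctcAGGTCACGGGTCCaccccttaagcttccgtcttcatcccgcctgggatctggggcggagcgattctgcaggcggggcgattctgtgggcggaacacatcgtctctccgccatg
These lie at chr9:108662016-108662165 on the plus strand, chr9:55512214-55512363 on the minus strand and chr7:140116392-140116541 on the minus strand. The match begins 7 bases into the transcript in Slc25a20, 77 bases upstream of the start in Etfa and 83 upstream in Echs1, and reads AGGTGAAAGGTCG, AGGGCAAAGGTAA (on the opposite strand) and AGGTCACGGGTCC. The level of these genes was 1.89, 2.28 and 1.52-fold higher with ROS at day 8, so only Etfa was among the 12. The repeat unit AGGTCA alone, of which a perfect direct repeat would hold 2 copies, was in 20.7% of the 29 genes and 18.1% of all genes. The estrogen-related receptor element TCAAGGTCA, which contains AGGTCA, was in 1 of 29 (Acsl6) and 0.466% of all genes.

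The transduced samples could be compared only against a WT pair that was itself far apart. WT B was at least 2-fold below WT A in 11 of 33 genes and above it in 1 (Cpt1c), beside 7.61% of all tested genes lower and 12% higher. The median of the 33 genes was log2 -0.769, or 0.587 of the level in WT A. Among the lower genes, Cpt1b was at 76.4 FPKM in the first WT sample and 7.01 in the second, Acaa2 at 361 and 91.9, Slc25a20 at 132 and 39.2, and Acat1 at 181 and 54.2. Acsl1, Crat, Mlycd, Acadvl, Acadl, Acads and Hadha were the other 7 lower genes. WT A was the highest of the 5 transduced samples in 27 of 33 genes, beside 31.1% of all tested genes. The 4 beige and brown fat markers were also lower in WT B (median log2 -3.17), with Ucp1 at 12.1 FPKM in WT A and 0.724 in WT B. Other lists were apart too. At least 2-fold lower in WT B were 8 of 12 respiratory chain genes (median log2 -1.07) and 5 of 12 citrate cycle genes (-0.922). Of 11 regulators 7 were (-1.51), and of 12 peroxisomal oxidation genes 3 were (-0.727), with 1 at least 2-fold higher.

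Against the untransduced day 8 sample with ROS, the WT samples differed. WT A had 2 genes at least 2-fold higher (Acsl4 and Cpt1b) and 1 lower (Hsd17b10, at 0.340), beside 10.1% and 6.6% of all genes, with a median log2 of -0.180. WT B had 1 gene at least 2-fold higher (Acsl4) and 16 lower, beside 15.8% and 6.86% of all genes, with a median log2 of -0.934.

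S265A tests the loss of the phosphorylated serine. Against the mean of the WT pair, 0 of 33 genes were at least 2-fold higher and 1 (Cpt1b) was lower, beside 2.03% and 1.89% of all genes, with a median log2 of -0.266. The choice of WT sample decided this count. Against WT A alone, 11 genes were at least 2-fold lower and 0 higher, beside 4.92% and 7.3% of all genes, and against WT B alone 0 were lower and 0 higher, beside 4.14% and 2.39%. Cpt1b was at 6.95 FPKM in S265A, next to 7.01 in WT B. Of the 33 genes, 20 lay between WT A and WT B in S265A, 4 above both and 9 below both (Cpt1a, Cpt1b, Cpt2, Acad11, Hadha, Hadhb, Decr1, Dci and Oxct1). Among all genes, 54.3% lay between, 24.1% above and 21.6% below.

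S265D tests the phosphomimetic change. Against the WT mean, 0 genes were at least 2-fold higher and 0 lower, beside 2.7% and 1.12% of all genes, with a median log2 of -0.148. Against WT A, 5 were lower (Cpt1b, Slc25a20, Acads, Acaa2 and Acat1) and 0 higher, beside 4.62% and 9.15%, and against WT B, 1 was higher (Cpt1b, 2.13-fold) and 0 lower, beside 2.44% and 1.34%. In S265D, 26 of 33 genes lay between the WT samples, 2 above both and 5 below both, beside 57.3%, 22.4% and 20.3% of all genes. Set beside S265A, S265D was higher in 22 of 33 genes, while it was higher in 49.3% of all genes. The widest differences were in Cpt1b (15.0 against 6.95 FPKM), Hadhb (277 against 141), Cpt2 (76.5 against 44.6), Decr1 (138 against 85.5) and Hadha (171 against 107). S265D was 2.14-fold higher than S265A in Cpt1b, 1.97 in Hadhb, 1.71 in Cpt2, 1.61 in Decr1 and 1.60 in Hadha. WT A and WT B differed 10.8, 1.99, 1.64, 1.70 and 2.00-fold in the same genes, so only the difference in Cpt2 was larger than that within the WT pair.

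S265D-H1120Y asks what the demethylase activity adds to S265D. It had the lowest level of the 5 transduced samples in 26 of 33 genes, beside 25.0% of all tested genes. Against S265D, 3 genes were at least 2-fold lower (Cpt1b at 0.295, Cpt2 at 0.486 and Hadhb at 0.487) and 0 higher, beside 5.05% and 2.57% of all genes. The shift was broad and mostly under 2-fold: 30 of 33 genes were lower, with a median log2 of -0.604 (0.658 of the level in S265D). Over all genes the median was -0.051, with 7526 of 13615 lower. The gap within the WT pair was wider, with 29 of 33 genes lower in WT B than in WT A and a median log2 of -0.769. Just outside the 2-fold limit against S265D were Acadl at 0.507 and Hadha at 0.519. Acsl4 (45.9 against 27.8 FPKM) and Oxct1 (113 against 79.9) were the higher genes, and Acad9 was level (13.0 and 12.9). After rescaling to equal medians Peci, at 0.991 of its level in S265D, turned to the higher side. Then 1 gene (Cpt1b) was left past 2-fold, beside 2.89% of all genes at least 2-fold higher and 4.52% lower. Below both WT samples were 27 of 33 genes, beside 32.2% of all genes.

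The lower level in S265D-H1120Y was shared with several other gene lists but not with all. Propionate genes had a median log2 ratio to S265D of -0.066 (2 of 4 lower). Within the 33 genes themselves, the tested ketone body genes had -0.015 (1 of 2 lower). Median log2 ratios to S265D were -0.424 in the citrate cycle (11 of 12 lower), -0.428 in the respiratory chain (12 of 12 lower), -0.401 in peroxisomal oxidation (11 of 12 lower) and -0.587 in the tested adipocyte markers (5 of 6 lower), while preadipocyte and fibroblast markers had -0.221 (5 of 7 lower) and the 4 beige and brown fat markers -2.35 (4 of 4 lower). The part of the make-up of the samples in the result was not tested. In limma, where the WT pair gives the only spread (1 residual degree of freedom), 0 of 33 genes passed in S265A against WT, S265D against WT and S265D-H1120Y against S265D, each with a smallest adjusted p of 1 and 0 of 33 at an unadjusted p under 0.05.

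**Figure D4:**
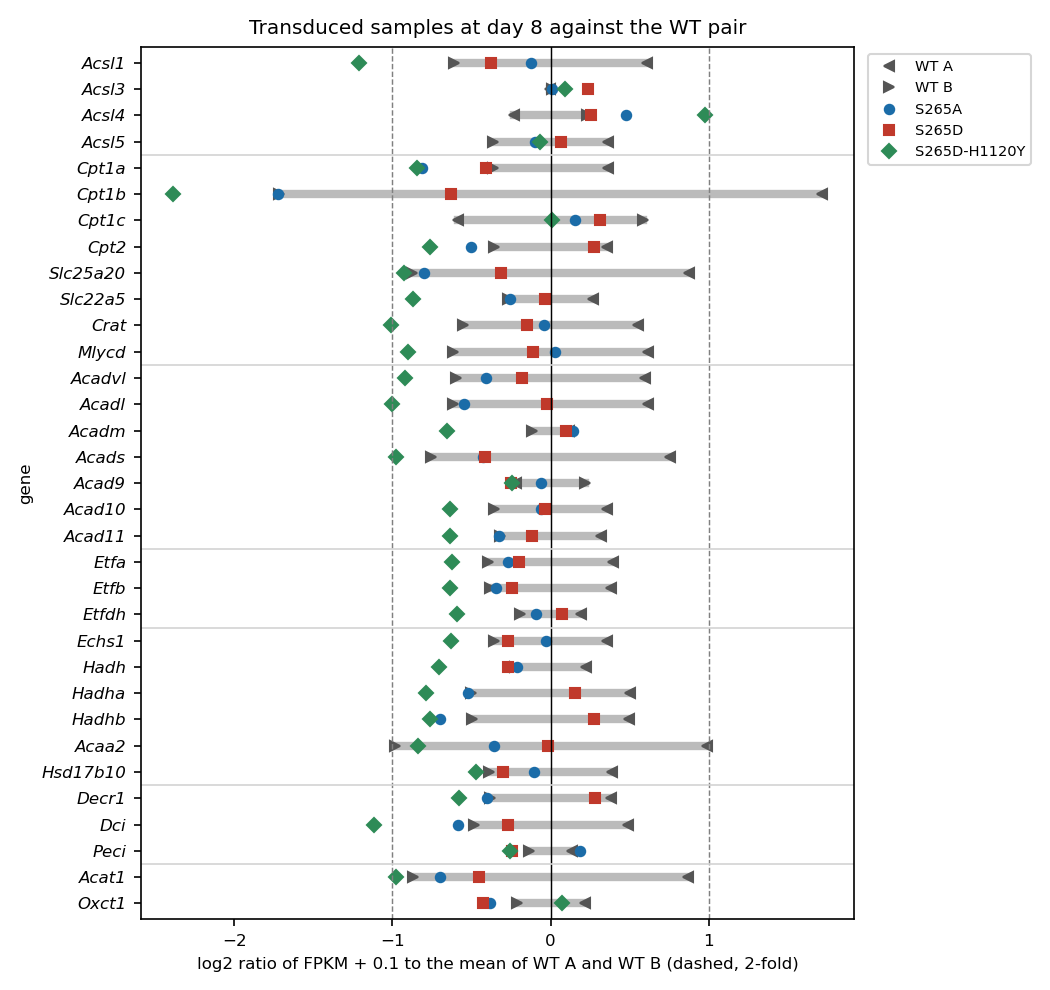
Log2 ratio of FPKM + 0.1 in each transduced sample to the WT pair's mean, 1 row per gene, with the grey bar spanning the WT pair and dashed lines at 2-fold. S265A and S265D fall mostly on the grey bars (20 and 26 of 33 genes), and S265D-H1120Y falls to their left in 27 of 33.

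The regulators of the pathway were read from a fixed list of 11 genes. Of these, 10 were called higher at day 8 than at day 0, the exception being Ppard, beside 27.7% of all tested genes. Ppara, the PPAR that governs fatty acid oxidation in liver, rose 28.8-fold to 2.28 FPKM without and 9.77 with ROS (adjusted p = 0.00251). Ppargc1a and Ppargc1b, coactivators of mitochondrial genes, rose 20.1-fold and 40.6-fold from at most 0.132 FPKM. Esrra, a nuclear receptor of mitochondrial genes, rose 5.07-fold from 7.40 and 7.27 to 30.4 and 46.5. These genes were also apart between the WT samples, with 12.1 and 1.83 FPKM of Ppara and 60.6 and 21.0 of Esrra in A and B.

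Acacb, which makes the malonyl-CoA that blocks Cpt1 at the mitochondrial surface, rose 21.0-fold (adjusted p = 0.00231). It stood at 1.05 and 1.11 FPKM at day 0, 9.23 and 13.5 at day 4, and 12.8 without and 47.4 with ROS at day 8. Like Mlycd, which removes malonyl-CoA, it was higher with ROS at day 8. In the transduced samples it was at 63.4 in WT A, 17.5 in WT B, 28.1 in S265A, 31.3 in S265D and 9.63 in S265D-H1120Y.

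Neighbouring routes rose alongside. At day 8, 9 of 12 peroxisomal oxidation genes, 4 of 4 propionate genes, 12 of 12 citrate cycle genes and 12 of 12 respiratory chain genes were higher than at day 0, with median log2 changes of 1.87, 2.55, 1.83 and 1.63. Of 3 ketogenesis genes, 2 were called higher and 1 lower. The background was 27.7% of all tested genes called higher and 26.1% lower.

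**Figure D5:**
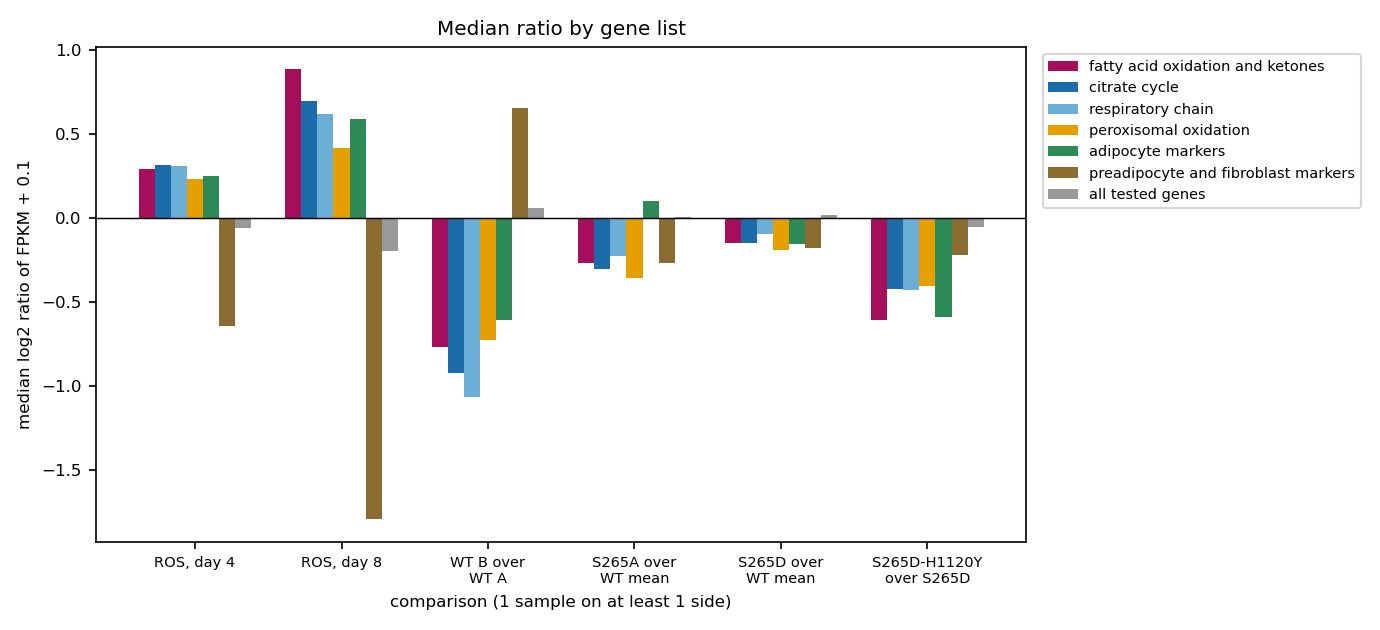
Median log2 ratio of FPKM + 0.1 for the fatty acid oxidation and ketone genes, citrate cycle, respiratory chain, peroxisomal oxidation, adipocyte markers, preadipocyte and fibroblast markers and all tested genes in 6 comparisons, as bars from 0 (no error bar, since each comparison has 1 sample on at least 1 side). With ROS at day 8 the bar of the pathway is at 0.884 and that of preadipocyte and fibroblast markers at -1.79, and in WT B over WT A they are at -0.769 and 0.657.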

How the data were processed

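RNA-seq was analysed in 11 samples grouped by GEO's labels. The authors mapped the reads to mm9 and its UCSC transcripts (Burrows-Wheeler aligner), ran a realigner of their own (k-mer of 11) and calculated strand-specific FPKM, which they deposited for 55419 transcripts in sense and antisense. Deposited log10 and log2 columns of the FPKM were not used, and the deposited signal of mapped bases (coverage) was used only for depth. The sense row with the representative flag stood for each symbol. limma (version 3.58.1, R 4.3.3) was run on log2(FPKM + 0.1) of 13615 genes with a trend and Benjamini-Hochberg adjustment at 0.05, over the 6 untransduced samples by day, and with 1 residual degree of freedom for ROS and the mutants. With 1 sample per group, ratios of FPKM + 0.1 past 2-fold were counted, and log2 ratios understate changes of low genes. The script was tested on simulated data. Python 3.11.15, pandas 2.3.3, numpy 2.4.6 and matplotlib 3.10.9 were used. All members were named, with fixed lists of pathway and marker genes. The members and lists were chosen with earlier results of these data known. The results of some listed genes are not reported here.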

Additional observations from a re-analysis of the deposited data

Results flagged for a closer look

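Between day 4 and day 8, Cpt1c and Acadm moved in opposite directions in the 2 arms of the time course. The log2 ratio of day 8 over day 4 was -0.83 with ROS and 0.398 without ROS in Cpt1c, and 0.605 with ROS and -0.574 without ROS in Acadm. Each arm had 1 sample per day, so the difference between the arms was not tested.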

How the results depend on the processing

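Day 8 against day 0 gave 24 to 32 calls when each sample was left out in turn, against 31 with all samples, and the lone sample of a day was then taken to vary like the others. Day 4 against day 0 gave 17 to 32 calls in place of 29, and 17 without the day 0 sample without ROS, the day 0 sample with ROS or the day 4 sample with ROS. With the culture as a replicate block the calls were 32 at day 8 and 31 at day 4, where the block is the ROS label, not a shared animal. In the same fits 27.0% of all genes were called higher and 26.0% lower at day 8, and 23.4% and 20.5% at day 4. Of the genes called, 8 at day 8 and 14 at day 4 lost the call in at least 1 of 13 alternatives, and 0 reversed. At day 8 the 2-fold count for ROS was 21 instead of 13 after rescaling to equal medians. In limma for ROS at day 8 the count was 12 with a pseudocount of 1, 2 with no minimum FPKM and 17 after rescaling, instead of 0, beside 1.89%, 2.83% and 2.9% of all genes called higher and 3.99%, 4.22% and 4.43% lower. The cause was not tested. For S265A against WT the 2-fold count was 0 to 11 with a single WT sample (1 with the mean), and for S265D 1 to 5 (0 with the mean). For S265D-H1120Y against S265D rescaling left 1 gene (Cpt1b) in place of 3, beside 2.89% of all genes at least 2-fold higher and 4.52% lower. In the rescaled fit of day 8 against day 4, 0.573% of all genes were called higher and 0.294% lower. In comparisons chosen after seeing the data, day 8 against day 4 gave 0 to 24 calls when each sample was left out (0 with all samples) and 1 call (Acsl5) after rescaling to equal medians. Over all genes, 1460 to 4175 were called higher and 759 to 4037 lower between days 4 and 0 over these leave-outs, and 2170 to 4195 and 1365 to 4911 between days 8 and 0. Depth limits only Bdh1 and genes near 0 at day 0, while Acsl6 was left out by the minimum FPKM of 1. The number of samples limits the rest: 1 sample per condition apart from WT.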
